A study of Mus musculus with 2 samples.

Results

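The aquaporins examined here were Aqp1, Aqp3, Aqp4, Aqp5, Aqp7, Aqp8, Aqp9 and Aqp11, measured on 1 Affymetrix array of control mouse islets and 1 array of islets labelled as lacking ZBTB20 in beta cells. Every probe set (a group of short probes read as 1 transcript signal) assigned to 1 of these genes alone was taken, which gave 17 probe sets for the 8 genes, among 34945 probe sets that name 1 gene and 45037 in all. The family was picked with results of the same 2 arrays known, so its values are a description and no test was made. Both groups were islets of mice aged 2 to 3 months on a mixed background. The control mice were wildtype littermates and the others carried a beta cell-specific knockout of ZBTB20, a zinc finger transcription factor. The labels name no Cre driver and no deleted part of the gene, and do not say how many mice were combined on an array. With 1 array per group there is no replicate error, so each ratio compares 2 RNA preparations, and variation between mice cannot be told apart from genotype.

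Aquaporins are membrane channels that let water follow osmotic gradients. The orthodox members pass mainly water, the aquaglyceroporins also pass glycerol, and the unorthodox members sit largely on membranes inside the cell. In the pancreas the family is best known from the fluid-secreting exocrine tissue, where Aqp1, Aqp5 and Aqp8 are found in duct and acinar cells, while in beta cells the aquaglyceroporin Aqp7 has been linked to glycerol handling and insulin release. Aqp4 is the main water channel of astrocytes and is also found on the basolateral membrane of stomach, kidney and airway epithelia.

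Aqp4 was the aquaporin that separated the arrays. It was faint in the control islets and clearly higher in the knockout-labelled islets on each of its 3 probe sets. Aqp11 was measured at nearly equal signals on both arrays. The other 6 genes, which include the beta cell aquaglyceroporin Aqp7 and the duct and endothelial channel Aqp1, lay in the lower part of both arrays, where a ratio has no meaning.

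Signals are MAS5 intensities on a linear scale. No detection calls were used here, so the 50th percentile of each array, 21.6 in the control and 21.7 in the knockout-labelled array, served as a floor. Signals under the floor were raised to it before a ratio was taken, and a probe set under it on both arrays received no ratio. The floor marks no limit of detection, and background can reach above it. By this rule 2 of the 8 genes were measured. Over all genes, 35.1% of 18193 had their brightest probe set no higher than the floor on both arrays.

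**Figure D1:**
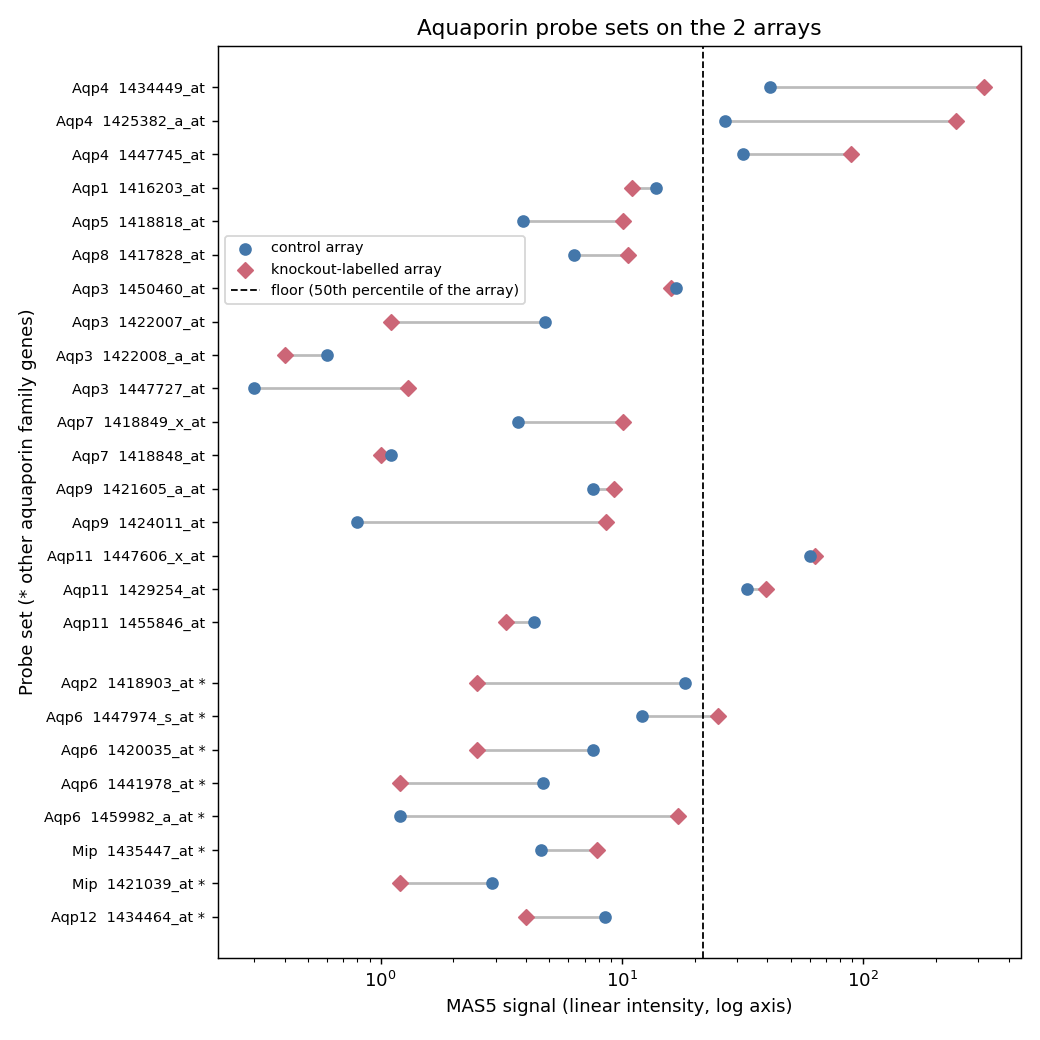
MAS5 signal (linear intensity on a log axis) of each aquaporin probe set on the control array (circles) and the knockout-labelled array (diamonds), with family genes outside the 8 marked by an asterisk. The 3 Aqp4 probe sets and 2 Aqp11 probe sets lie right of the floor on both arrays, and the other 12 probe sets of the 8 genes lie left of it.

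Among the orthodox channels, the brightest Aqp4 probe set, 1434449_at, read 41.1 in the control and 316 in the knockout-labelled islets. Its log2 ratio was 2.94, which is 7.70-fold. Its place among all probe sets of the array was percentile 62.2 in the control and 89.8 in the knockout-labelled islets.

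Probe set 1425382_a_at, whose suffix marks a set shared by several transcripts of 1 gene, read 26.6 and 243. That is a 9.14-fold higher signal (log2 ratio 3.19), starting close to the floor of 21.6. Probe set 1447745_at read 31.8 and 88.8, or 2.79-fold higher (log2 ratio 1.48). All 3 probe sets were therefore above the floor on both arrays and higher in the knockout-labelled one, and they differed in the size of the ratio. The SD of their log2 ratios was 0.92, against a median SD of 0.21 over the 4719 genes with at least 2 such probe sets. Which stretch of the Aqp4 transcript each set covers was not analysed here. Probe sets share the RNA and the array and are not replicates.

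A ratio of 2-fold or more in favour of the knockout-labelled islets was found for 215 of 11802 named genes (1.82%), and one of that size in favour of the control for 170 (1.44%). Among the aquaporins, 1 of the 2 measured genes was at least 2-fold higher and none was 2-fold lower. The genes were chosen from this same contrast, so nothing is read from that count. The rank of Aqp4 and its place among other genes, given next, follow from the same choice and only describe it. Aqp4 had the 6th highest ratio of the 10450 genes above the floor on both arrays. Among the 500 genes nearest to it in mean signal, the central 95% of log2 ratios ran from -0.75 to 0.80, and none of the 500 reached the Aqp4 value. Of 1125 genes with 3 or more probe sets, all above the floor on both arrays, 4 (0.356%) had every probe set at least 2-fold higher and 2 (0.178%) every probe set at least 2-fold lower. The higher ones were Aqp4, Crispld2, Sorl1 and Dbi.

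With 2 arrays, the pattern of a gene is 1 ratio, so likeness could be measured only as the gap between log2 ratios. Among genes above the floor on each array, the 5 nearest to Aqp4 were Csf2rb (log2 ratio 2.93), a receptor subunit for colony-stimulating factors, Rasgrp1 (2.64), a Ras activator, the trypsinogen gene Prss3 (2.57), the prostaglandin E receptor gene Ptger4 (2.52) and Mrc1 (2.42), the mannose receptor of macrophages. Csf2rb read 76.3 and 581, a ratio within 0.016 of that of Aqp4. The other Ptger4 probe set (8.0 and 31.2) was under the floor on the control array and gave a bound of at least 0.53. Genes that share a ratio on 2 arrays need share nothing else.

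**Figure D2:**
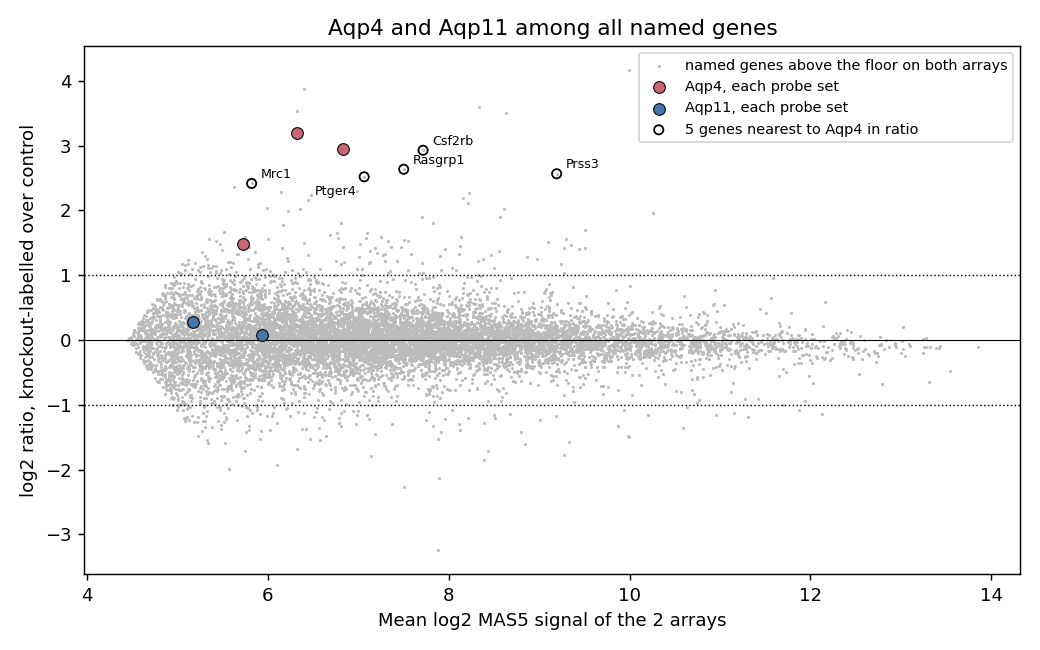
Log2 ratio of knockout-labelled over control signal against the mean log2 signal of both arrays for the 10450 named genes over the floor in both (grey), with each measured probe set of Aqp4 and Aqp11 and the 5 genes nearest to Aqp4 in ratio. Dotted lines mark 2-fold. The Aqp4 probe sets lie at 1.48, 2.94 and 3.19 and the Aqp11 probe sets at 0.071 and 0.27.

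Aqp1, the water channel of red blood cells, capillary endothelium and duct epithelium, has 1 probe set, which read 13.8 in control and 11 in knockout-labelled islets. Both values were under the floor. Endothelial markers were nonetheless measured for 10 of 12 genes, with a summed signal of 1263 in control and 1193 in knockout-labelled islets. None of the 10 was 2-fold different, a count near the background of 1.82% higher and 1.44% lower over all genes. Of the 10, 2 were higher and 8 lower, with log2 ratios from -0.46 to 0.83, the latter for Kdr (40.9 and 72.8). The endothelial gene Plvap, for example, read 228 and 193. The defining red blood cell genes Hba-a1, Alas2 and Slc4a1 were under the floor on both arrays. In a mixed tissue such as an islet preparation, fewer cells of a type and less RNA per cell cannot be told apart.

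Aqp5, found on the apical membrane of secretory gland cells, read 3.9 and 10.1. Aqp8, a channel of the apical membrane of rodent acinar cells, read 6.3 and 10.6. Both were under the floor on each array. The preparations did hold acinar transcripts, since 11 of 13 acinar markers with a probe set were measured and their signals summed to 45023 on the control and 23027 on the knockout-labelled array. Of those 11, 7 were at least 2-fold lower in the knockout-labelled islets and none was 2-fold higher, beside 1.44% and 1.82% over all genes. The median log2 ratio of the 11 was -1.07 beside 0 for all measured genes. The acinar gene Bhlha15 read 713.5 and 741.2, and Ptf1a and Rbpjl were under the floor on both arrays. Duct markers had 2 of 7 measured genes at least 2-fold lower, beside 1.44% over all genes, and a summed signal of 7333 and 5804. Of the 2, Car2 (57.8 and 11.2) was under the floor on the knockout-labelled array, so its ratio is a bound. The keratin genes Krt18 (3509 and 2903) and Krt8 (2339 and 1767) were the largest signals in the sum. The duct genes Sox9, Cftr and Muc1 were under the floor on both arrays.

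The aquaglyceroporins gave no measurable signal by the floor used. Aqp3, a channel of basolateral membranes in kidney and skin, had 4 probe sets with control signals from 0.3 to 16.7 and knockout-labelled signals from 0.4 to 16. The brightest of them, 1450460_at, read 16.7 and 16, the closest to the floor of the 12 unmeasured probe sets of the 8 genes.

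Aqp7, the glycerol channel of fat cells, read 3.7 and 10.1 on probe set 1418849_x_at and 1.1 and 1.0 on probe set 1418848_at. The suffix of the first marks probes that can bind other transcripts. Of the adipocyte markers, Adipoq, Lep and Cidec were under the floor on both arrays, and Fabp4, which endothelial cells and macrophages also express, read 570 and 677. Aqp9, a glycerol channel of liver cells and leukocytes, read 7.6 and 9.3 on probe set 1421605_a_at and 0.8 and 8.6 on 1424011_at. Across the 12 unmeasured probe sets of the 8 genes, 6 were higher and 6 lower in the knockout-labelled array, so they showed no common direction.

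Aqp11, an unorthodox channel located on the endoplasmic reticulum, was the other measured member. Its brightest probe set, 1447606_x_at, read 59.9 in control and 62.9 in knockout-labelled islets (log2 ratio 0.071). The suffix of that set marks probes that can bind other transcripts. Probe set 1429254_at read 32.9 and 39.7 (log2 ratio 0.27), and 1455846_at was under the floor at 4.3 and 3.3. Among the 500 genes nearest to Aqp11 in mean signal, the central 95% of log2 ratios ran from -0.86 to 0.96, so a change smaller than about 2-fold in a gene of this signal could not be told from the spread between genes.

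The family genes outside the 8 were also low. Aqp2, the vasopressin-regulated channel of the kidney collecting duct, read 18.2 in control and 2.5 in knockout-labelled islets. Aqp12, a channel of pancreatic acinar cells, read 8.5 and 4.0. Both probe sets of Mip, the lens fibre channel, were between 1.2 and 7.9. Of the 4 probe sets of Aqp6, a channel of intracellular vesicles in kidney, 1 passed the floor, on the knockout-labelled array alone. This was 1447974_s_at, with a signal of 12.1 and 25.0, whose suffix marks probes shared with other transcripts. Of the other Aqp6 probe sets, 1459982_a_at read 1.2 and 17, whereas 1420035_at (7.6 and 2.5) and 1441978_at (4.7 and 1.2) were lower in the knockout-labelled array.

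Aqp4 is anchored at the membrane through syntrophins to the dystrophin complex. Of 19 genes with a probe set that encode such anchors or accompany Aqp4 in astrocytes, 10 were measured, and the other 9, among them Dmd, Sntb1 and Sntg1, were under the floor on both arrays. None of the 10 was 2-fold different, a count near the background of 1.82% higher and 1.44% lower over all genes, with a median log2 ratio of 0.14 beside 0 for all measured genes. The ratios farthest from 1 were those of Dtnb, a dystrobrevin gene (56.1 and 95.4, log2 ratio 0.77), Sntb2, a syntrophin gene (73.9 and 55.2, log2 ratio -0.42), and Utrn, the dystrophin homologue (209 and 271, log2 ratio 0.38). Another Utrn probe set gave -0.22.

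Of 19 genes of glycerol and lipid droplet metabolism with a probe set, 17 were measured and none was 2-fold different, which is also near that background. Their median log2 ratio was -0.068. Among genes that passed the floor on both arrays, the largest ratios were those of the glycerol-3-phosphate dehydrogenase genes, with Gpd1 at 68.3 and 106 (log2 ratio 0.63), Gpd1l at 132 and 176 (0.41) and the mitochondrial form Gpd2 at 668 and 517 (-0.37). Of the genes of cell volume control and epithelial ion transport, 18 of 22 with a probe set were measured. Of the 18, 1 was at least 2-fold lower, beside 1.44% over all genes. This was Slc12a7, a potassium-chloride cotransporter that lets swollen cells lose salt, at 95.3 and 23.9 (3.99-fold lower). Its signal in the knockout-labelled islets lay next to the floor of 21.7, and its other probe set was under the floor on both arrays. With the floor at the 70th percentile its log2 ratio was a bound of -0.47, short of 2-fold. The list median was -0.099.

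Markers of other cell types were set beside Aqp4 because it is known from glia. Of 5 Schwann cell and glial genes with a probe set, Gfap, S100b, Cdh19 and Foxd3 were under the floor on both arrays. Sox10 read 22.1 and 28.6, and the 5 signals summed to 36.6 on the control and 48.4 on the knockout-labelled array. Macrophage and neutrophil genes were measured for 13 of 14, with a summed signal of 1133 and 1615. Of the 13, 4 were at least 2-fold higher in the knockout-labelled islets, beside 1.82% over all genes. In all, 10 were higher and 3 lower, the latter being S100a8 (31.8 and 18.4), S100a9 (177 and 118) and Lyz2 (64.0 and 63.6). Among the 4, Fcer1g was under the floor on the control array (20.2 and 51.8). Other C1qb probe sets gave a log2 ratio of 0.30 and a bound of at least 0.95. Mrc1, with 24.5 and 131, had the largest ratio of the 13. With the floor at the 70th percentile its log2 ratio was a bound of at least 0.97, short of 2-fold. Itgam was under the floor on both arrays. Fibroblast, stellate and smooth muscle genes were measured for 7 of 10 (summed signal 506 and 474.5). Of the 7, 2 were at least 2-fold lower, beside 1.44% over all genes. Dcn (61.6 and 19.8) was under the floor on the knockout-labelled array, so its ratio is a bound. Col3a1 (46.0 and 22.5) lay next to the floor of 21.7 there. The other probe set of each gene was under the floor on both arrays. The list median of -0.37 became 0.32 once the 70th percentile served as floor. Whether the macrophage signals or the lower acinar signals have a part in the Aqp4 difference was not tested.

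The endocrine genes matched the islet label. All 10 beta cell markers were measured, with Ins2 at 9194 and 7786. None of the 10 was 2-fold different, a count near the background of 1.82% higher and 1.44% lower over all genes. Gcg, the glucagon gene of alpha cells, read 11215 and 10292 and Sst, the somatostatin gene of delta cells, 9661 and 9770. Of the 4 measured alpha cell markers, 1 was at least 2-fold higher, beside 1.82% over all genes. It was the amino acid transporter gene Slc38a5 at 153 and 406. Ppy, the pancreatic polypeptide gene, read 12702 and 8095 (log2 ratio -0.65). The targeted gene did not settle the genotype label, since 5 of the 9 Zbtb20 probe sets were lower and 4 higher, with log2 ratios from -0.87 to 0.54. A probe set outside the deleted part would not register the deletion, and the array is called knockout-labelled for this reason.

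**Figure D3:**
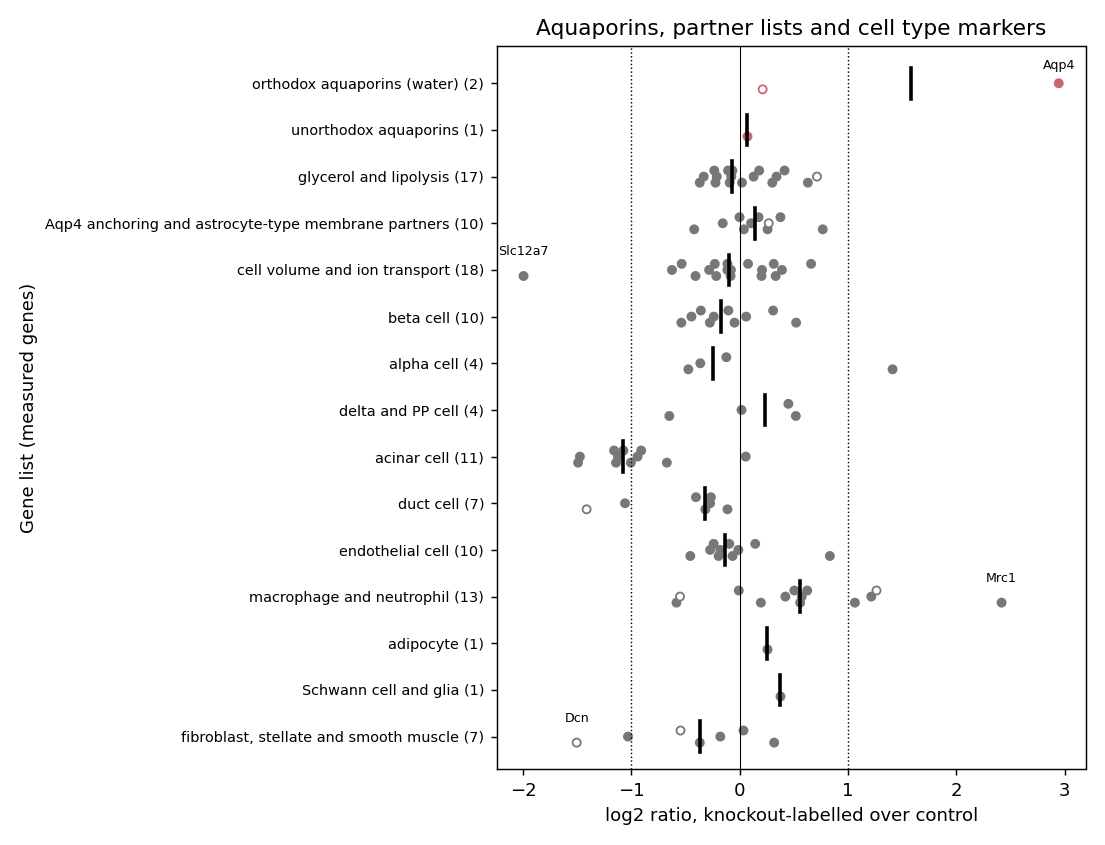
Log2 ratio of knockout-labelled over control signal for each measured gene of the family, partner and cell type lists, with the number of measured genes in brackets, black bars at the list medians and dotted lines at 2-fold. Open circles are genes above the floor on 1 array only, whose ratio is a bound. Aqp4 (2.94) lies right of all other genes shown, and the 11 acinar genes have a median of -1.07.

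The size of the Aqp4 ratio followed the treatment of low signals. With the floor at the 70th percentile its control signal fell under the floor, and the log2 ratio became a bound of at least 2.24. Probe set 1447745_at then had a bound of at least 0.41, so that not all 3 probe sets reached 2-fold under that floor. With no floor and a pseudocount of 16 it was 2.54, and with the mean over its 3 probe sets it was also 2.54. Under the floor at the 70th percentile, Aqp11 was no longer measured. With the floor at the 30th percentile all 8 genes received a ratio, and Aqp4 was still the only one of them at 2-fold. The ratio was then -0.33 for Aqp1 and -0.062 for Aqp3, and for Aqp5, Aqp7, Aqp8 and Aqp9, above that floor on the knockout-labelled array alone, the bounds ran from at least 0.096 to at least 0.28.

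**Figure D4:**
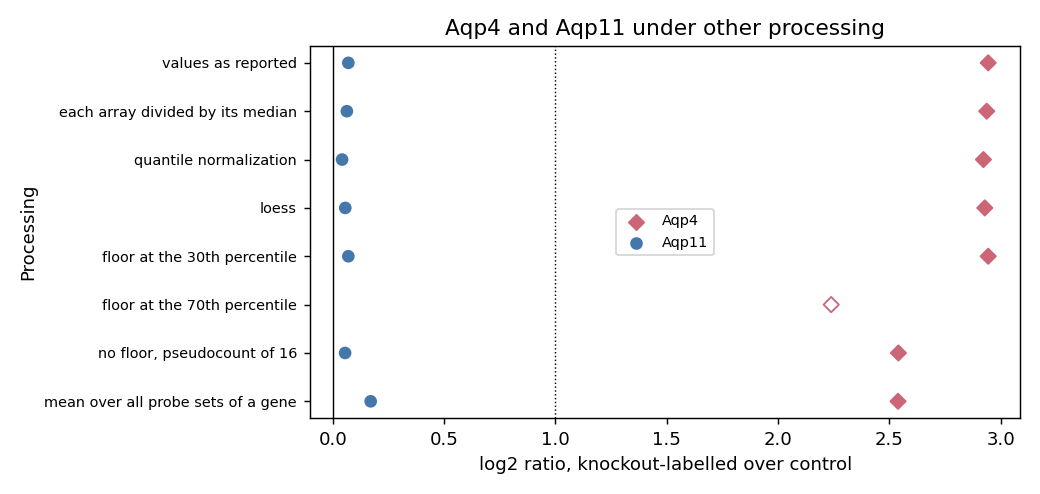
Log2 ratio of knockout-labelled over control signal of Aqp4 (diamonds) and Aqp11 (circles) under each way of processing, with a dotted line at 2-fold. The open diamond is a bound. Aqp4 runs from 2.24 to 2.94 and Aqp11, where measured, from 0.042 to 0.17.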

How the data were processed

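Total RNA (6 µg) of each islet preparation was hybridised to 1 Affymetrix array. The deposited table holds linear MAS5 signal intensities made by the authors with MAS5, per the submitters' processing notes; not given in the sources used here are its version, scaling target and detection calls. No further normalization was applied.

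Genes were named through the platform annotation, which can be old: 34945 probe sets had 1 gene, 932 several and 9160 none. The 8 aquaporins matched RefSeq (GRCm38.p6) by Entrez identifier. Each gene's value came from the probe set with its highest mean log2 signal. Low signals were raised to the 50th percentile of the array. Ratios at or past 2-fold were counted, with no test, since there was 1 array per group. Scripts in Python 3.11.15 with pandas 2.3.3 were tested on simulated data with planted changes.

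The aquaporins and the 17 lists (161 of 190 symbols had a probe set) were chosen with earlier results of these data known. Named genes were all aquaporins, list genes at 2-fold or, failing these, the 3 largest ratios of a list, and the 5 genes nearest to Aqp4. Marker genes, the genes Crispld2, Sorl1 and Dbi, and the neighbours of Aqp4 and Aqp11 were named after their values were seen.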

Additional observations from a re-analysis of the deposited data

How the results depend on the processing

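Of the 9 alternatives, the limits of 1.5-fold and 3-fold and the floor at the 30th percentile could not change the Aqp4 ratio. Aqp4 was at least 2-fold higher under all 9, with log2 ratios from 2.24 to 2.94. Its value moved by more than 0.21, the median SD among probe sets of a gene over all genes, but by less than the SD of 0.92 among its own probe sets, with the floor at the 70th percentile (at least 2.24), with no floor and a pseudocount of 16 (2.54) and with the mean over its probe sets (2.54). The number of measured aquaporins was 8 under the 30th percentile floor and 8 without a floor, when 18193 genes were measured in all, and 1 under the 70th percentile floor, a count that the floor itself sets. Over all genes, the lower floor gave 695 that were 2-fold higher and 638 that were 2-fold lower, and the higher floor 96 and 64. Calling from 1.5-fold gave 814 higher and 732 lower genes, and calling from 3-fold gave 51 and 17. Array median, quantile and loess scaling moved the Aqp4 ratio to no less than 2.92. No paired analysis was possible because each group has 1 array. Most aquaporins had no ratio because their signals were under the floor, and how far they stood above background was not measured.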

Other observations

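The neighbours of both measured aquaporin genes were looked at after the aquaporin values were seen. Among the 3 nearest protein-coding genes on each side of Aqp4 in the RefSeq order, 3 were measured. Cdh2, an N-cadherin gene, read 408 in control and 438 in knockout-labelled islets, Kctd1 read 32.2 and 43.9, and Taf4b read 56.1 and 73.4. Their log2 ratios were 0.10, 0.45 and 0.39, all under 2-fold. Chst9, the nearest gene on the other side from Kctd1, was under the floor on both arrays at 4.5 and 12.0, as were Psma8 and Dsc3. Beside Aqp11, the log2 ratio was -0.23 for Clns1a, -0.13 for Rsf1, 0.012 for Aamdc and 0.52 for Myo7a. Other Rsf1 probe sets gave 0.38, -0.28 and 0.32, so its direction differed between probe sets. The neighbours Pak1 and Gdpd4 had no probe set of 1 gene.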
